A study of Mus musculus with 168 samples.

Results

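The insulin-like growth factor (IGF) axis was followed here through 9 genes of the expression table. They were the ligands Igf1 and Igf2, the receptors Igf1r and Igf2r, and the binding proteins Igfbp2, Igfbp3, Igfbp4, Igfbp5 and Igfbp6. They were chosen by name, and all 9 were among the table's 39410 rows. The study profiled neurons cut by laser from frozen brain and spinal cord sections of delta7 mice, a model of spinal muscular atrophy (SMA), and of littermate controls. Per the labels, about 150 cells went into each tube and were turned into a Smart-seq2 library, a full-length cDNA method. SMA mice were Smn-/-/SMN2+/+/SMN∆7+/+ and controls were Smn+/+/SMN2+/+/SMN∆7+/+, so both genotypes carried the human SMN transgenes. Both were sampled at postnatal days 2, 5 and 10. The 34 mice were 6 controls and 9 SMA mice at day 2, 5 of each at day 5, and 4 controls and 5 SMA mice at day 10. The 5 motor neuron populations were ocular (oculomotor and trochlear nuclei), facial, vagus, hypoglossal and lumbar, and red nucleus neurons of the midbrain were the sixth population. Each of the 36 groups of population, genotype and day held 3 to 7 mice.

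IGF1 and IGF2 are secreted growth factors that signal through the tyrosine kinase receptor IGF1R to PI3K and AKT and act on neuronal survival and growth. IGF2R, the cation-independent mannose-6-phosphate receptor, takes up IGF2 for breakdown in lysosomes and sorts lysosomal enzymes. IGF binding proteins hold the ligands outside the cell and either restrain or prolong their action, and IGF signals have been tied to the sparing of ocular motor neurons in motor neuron disease.

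Levels are given in RPKM, a read number corrected for transcript length and for the size of the library. Libraries of 1 mouse and population were averaged, which gave 160 samples, 72 control and 88 SMA. Differences are on the log2(RPKM + 1) scale, were tested with limma, and were called at an adjusted p under 0.05 over all genes tested. Smn1 reached 4.24 RPKM at most in SMA samples and was at least 4.32 RPKM in controls, so no SMA sample lay above a control. The 4 motor neuron markers found in the table summed to a mean of 864 to 1629 RPKM in the control motor neuron populations and to 50.6 RPKM in red nucleus neurons, and 2 red nucleus markers summed to 405 RPKM there against 7.45 to 19.2 RPKM elsewhere. The fifth motor neuron marker of the list, Slc18a3, had no value here. Estimated depth ran from 0.342 to 16.3 M reads per library, with a median of 5.89, and 2 libraries had under 2 M reads. In pools of cut cells, fewer cells of a type and less RNA per cell cannot be told apart. In the fits per population the mouse was the replicate, so p-values measure the spread between mice. Populations were compared or averaged in 1 fit of all 160 samples, where the 34 mice gave several samples each. Samples of 1 mouse were linked there only by a consensus correlation of 0.0366. They counted as nearly independent, so those p-values measure mostly the spread between samples within groups.

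In control mice Igf1, Igf2r, Igfbp2 and Igfbp5 were the well expressed members, with highest population means of 77.8, 16.7, 40.6 and 30.1 RPKM. Igfbp6, Igfbp4 and Igfbp3 reached 10.3, 7.47 and 6.71 RPKM, and Igf2 and Igf1r only 2.35 and 1.49 RPKM. An F test over the 6 populations, averaged over days, called 7 of the 9 members, all but Igf2 and Igf1r, while 43.7% of all 22270 genes tested were called. Over 15 pairs of populations, 51 of 135 member differences were called, against 17.4% of the differences of all genes. By member the number of called pairs was 12 of 15 for Igf1, 10 for Igfbp6, 9 for Igfbp2, 9 for Igfbp5, 6 for Igfbp4, 3 for Igf2r and 2 for Igfbp3, and Igf2 and Igf1r had 0.

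**Figure D1:**
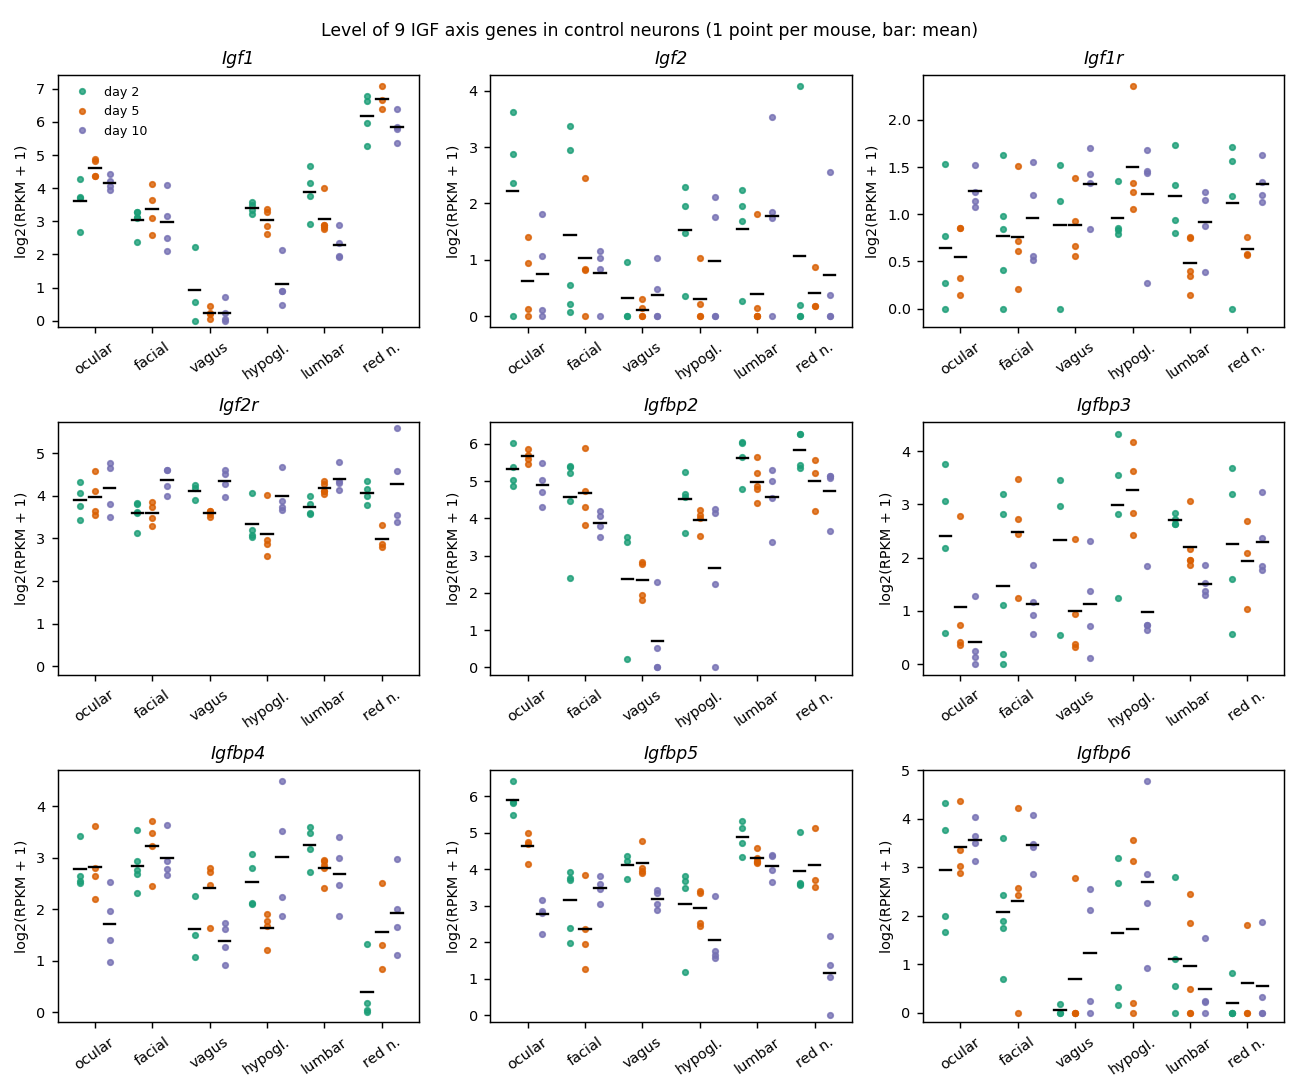
Level of each member in control neurons as log2(RPKM + 1), with the populations on the horizontal axis, 1 point per mouse, colours for days 2, 5 and 10, and a black bar at the group mean. Igf1 stands highest in red nucleus neurons and lowest in vagus neurons, Igfbp5 steps down with day in ocular neurons, and Igf2 and Igf1r show no population that stands apart.

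Igf1, on chromosome 10 (87858265 to 87937042, plus strand, GRCm38), showed the widest separation of populations. In control red nucleus neurons Igf1 ran from 37.5 to 134 RPKM with a median of 82.0 (n = 11). In ocular neurons it ran from 5.40 to 28.2 RPKM with a median of 18.0 (n = 12). Every control red nucleus sample lay above every ocular sample, and the log2 difference was 2.12 (SE 0.27, adjusted p = 3.46e-11). Facial, lumbar and hypoglossal neurons followed with medians of 7.73, 6.44 and 7.26 RPKM. Ocular neurons exceeded facial neurons by 0.997 (SE 0.254, adjusted p = 0.00158), whereas the steps from facial to lumbar (0.041) and from lumbar to hypoglossal (0.56, adjusted p = 0.128) were not called. Vagus neurons were lowest, at 0 to 3.69 RPKM with a median of 0.174 (n = 11), and lay 2.05 below hypoglossal neurons (SE 0.27, adjusted p = 1.4e-10). In vagus neurons 2 of the 11 control samples were at 0, and at the median depth 3 reads of Igf1 equal 0.0514 RPKM. SMA samples gave the same populations at both ends, with a median of 53.8 RPKM in red nucleus neurons and 0.265 RPKM in vagus neurons.

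The lead of ocular over lumbar neurons in Igf1 appeared at the later days. At day 2 the 4 control ocular samples had 5.40, 12, 12.3 and 18.5 RPKM, and the 4 lumbar samples had 6.55, 12.5, 16.6 and 24.4 RPKM. These ranges overlapped almost wholly. At day 10 ocular samples had 14.4, 15.7, 17.5 and 20.4 RPKM and lumbar samples had 2.83, 2.87, 4.07 and 6.46 RPKM, with no overlap. Ocular minus lumbar was -0.29 at day 2 (adjusted p = 0.861), 1.53 at day 5 (SE 0.42, adjusted p = 0.0129) and 1.87 at day 10 (SE 0.45, adjusted p = 0.00271). Of the 9 members, 0 were called at day 2, 2 at day 5 (Igf1 and Igfbp6) and 3 at day 10 (Igf1, Igfbp6 and Igfbp5), against 6.89%, 5.6% and 4.24% of all genes. These contrasts by day were chosen after the levels by day were seen, and the change of the ocular lead between days was not tested. The labels say that the lumbar control libraries of day 5 include reads from an earlier deposit, and without ocular libraries of 1 nucleus only 1 control ocular mouse remained at day 5, where the Igf1 difference was 1.3 (adjusted p = 0.754). The day 5 call of Igf1 was also lost without mouse 29 (1.42, adjusted p = 0.0989) or mouse 30 (1.36, adjusted p = 0.108). With a pseudocount of 0.1 the Igf1 differences were 1.65 at day 5 (adjusted p = 0.159) and 2.11 at day 10 (adjusted p = 0.0744).

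**Figure D2:**
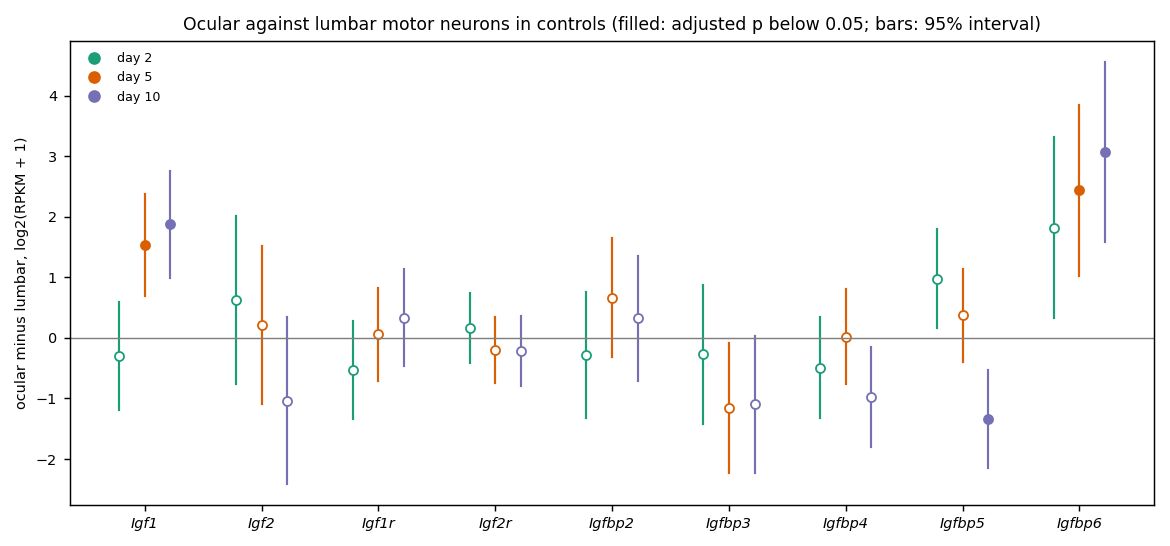
Ocular minus lumbar neurons in controls at each day on the log2(RPKM + 1) scale, with 95% intervals and filled points where the adjusted p was under 0.05. Igf1 and Igfbp6 lie above 0 at days 5 and 10, and Igfbp5 lies above 0 at day 2 and below 0 at day 10.

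Igf1 fell with age in hypoglossal and lumbar neurons. In hypoglossal controls it was 8.34, 9.17, 10.2 and 11 RPKM at day 2 and 0.391, 0.860, 0.874 and 3.39 RPKM at day 10. The groups did not overlap, and the log2 difference was -2.31 (SE 0.42, adjusted p = 0.000938). In lumbar controls the difference was -1.59 (SE 0.37, adjusted p = 0.00414), and the day 2 and day 10 samples did not overlap either. SMA means moved alike, from 8.86 to 2.25 RPKM in hypoglossal and from 12.2 to 2.95 RPKM in lumbar neurons. Oligodendrocyte markers (6 of 6 in the table) summed to 30.9 to 92.6 RPKM at day 2 and to 191 to 775 RPKM at day 10 in the hypoglossal controls, and to 16.9 to 46.9 and 537 to 1176 RPKM in the lumbar controls. The part of these markers in the age differences was not tested.

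Igf2, an imprinted gene on chromosome 7 (142650766 to 142666816, minus strand), was low and uneven. Its means in the 18 control groups lay between 0.0826 RPKM (vagus, day 5) and 5.46 RPKM (ocular, day 2), and 40 of 160 samples were at 0. At the median depth 3 reads equal 0.0889 RPKM. In ocular controls at day 2 the lowest mouse had 0 and the highest had 11.4 RPKM, so the spread within a group was as wide as that between groups. The F test over populations had an adjusted p of 0.296. Within groups, deviations of Igf2 correlated with the summed markers of mural cells (r = 0.35), endothelium (r = 0.27) and leptomeninges (r = 0.27). These were picked from the values of all 9 members and all marker sets, over 160 samples that share mice and tubes. Values of like size included Igf1 with leptomeninges (-0.27) and red nucleus markers (0.27), Igfbp5 with motor neuron markers (-0.26) and Igf1r with microglia (0.25). The part of mural, endothelial and leptomeningeal cells in the Igf2 values was not tested. In controls the leptomeningeal markers (5 of 5 in the table) summed to a mean of 123 RPKM in hypoglossal neurons and to 1.15 to 22.2 RPKM elsewhere. Dcn alone made up 116 RPKM of the hypoglossal sum, and Col1a2 was lower there (0.623 RPKM) than in vagus (1.79), lumbar (1.39), facial (1.26) and ocular neurons (0.832). Meanwhile, mean Igf2 was 1.32 RPKM in hypoglossal neurons against 0.247 to 2.35 RPKM elsewhere.

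Igf1r, the signalling receptor on chromosome 7 (67952827 to 68233668, plus strand), was low in every population. Control means ran from 0.859 ± 0.652 RPKM (SD, n = 12) in ocular neurons to 1.49 ± 1.0 RPKM (SD, n = 12) in hypoglossal neurons. At the median depth 3 reads of this long transcript equal 0.0303 RPKM, and 6 of 160 samples were at 0. No pair of populations was called, and the F test had an adjusted p of 0.579. Ocular minus lumbar lay between -0.53 and 0.33 over the 3 days, with intervals that reached -1.33 and 1.13.

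Igf2r, on chromosome 17 (12682406 to 12769664, minus strand), was detected in every sample. Its upstream bases are shown because Igf2r was the member with lower values in SMA in every contrast. They are RefSeq sequence (GRCm38.p6), chr17:12769707-12769956, minus strand, with capitals for matches to the GC box letters GGGCGG on either strand.
Igf2r: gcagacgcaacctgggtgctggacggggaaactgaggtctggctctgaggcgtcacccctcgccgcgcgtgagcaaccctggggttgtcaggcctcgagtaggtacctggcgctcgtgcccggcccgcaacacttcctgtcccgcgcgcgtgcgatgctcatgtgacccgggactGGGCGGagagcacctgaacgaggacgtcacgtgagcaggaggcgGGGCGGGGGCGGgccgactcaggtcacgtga
The 250 bases held 3 GC box matches and no match to TATAAA or CCAAT, and were 69.2% G or C against a median of 52.4% over 32851 such windows. GGGCGG was found in 32.7%, CCAAT in 33.8% and TATAAA in 12.4% of those windows, searched on both strands.

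Control Igf2r medians ran from 9.91 RPKM in hypoglossal neurons (5.02 to 24.6, n = 12) to 16.3 RPKM in lumbar neurons (10.9 to 26.7, n = 13). Hypoglossal neurons were the only population called apart for Igf2r, below lumbar by 0.62 (SE 0.16, adjusted p = 0.00248), below ocular by 0.54 (SE 0.17, adjusted p = 0.013) and below vagus by 0.53 (SE 0.17, adjusted p = 0.0177). The ocular call was lost without ocular libraries of 1 nucleus (0.47, adjusted p = 0.127) and without mouse 26, 29 or 252 (adjusted p of 0.0513 to 0.068), and the vagus call without mouse 26 or 34 (adjusted p of 0.0546 and 0.0634). None of the 5 steps between neighbours in the order of levels was called. Airn, the antisense RNA of the imprinted Igf2r locus on the opposite strand (12741311 to 12860136), averaged 4.07 RPKM in vagus neurons and 52.6 RPKM in facial neurons. Whether the counting used strand is not given in the sources used here, so reads from Igf2r and Airn where they overlap cannot be told apart.

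Among the binding proteins, upstream bases are shown for Igfbp3 and Igfbp5, the 2 members of this family whose fall with age was called in several populations. Both are RefSeq sequence (GRCm38.p6, minus strand), chr11:7213924-7214173 and chr1:72874885-72875115. None of the 3 motif letters above was found in either stretch, so neither has capitals.
Igfbp3: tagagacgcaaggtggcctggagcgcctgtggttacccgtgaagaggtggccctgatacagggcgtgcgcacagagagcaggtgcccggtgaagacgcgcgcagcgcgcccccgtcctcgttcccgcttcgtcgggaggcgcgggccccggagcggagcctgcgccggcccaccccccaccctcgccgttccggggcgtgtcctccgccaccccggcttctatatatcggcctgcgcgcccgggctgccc
Igfbp5: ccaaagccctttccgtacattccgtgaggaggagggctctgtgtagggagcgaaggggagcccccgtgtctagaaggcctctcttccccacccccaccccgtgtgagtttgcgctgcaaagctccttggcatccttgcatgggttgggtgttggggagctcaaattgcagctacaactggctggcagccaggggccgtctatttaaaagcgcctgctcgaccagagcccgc
The Igfbp3 bases were 73.2% and the Igfbp5 bases 60.6% G or C.

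Igfbp5, on chromosome 1 (72857932 to 72874884, minus strand), encodes a binding protein that also binds extracellular matrix. Over all days it was highest in ocular neurons, at 3.71 to 83.8 RPKM with a median of 25.4 (n = 12), and in lumbar neurons, at 11.6 to 38.9 RPKM with a median of 19.2 (n = 13). These populations differed by 0.0056 (adjusted p = 1) when the days were averaged. Vagus neurons followed at a median of 14.0 RPKM and lay above red nucleus neurons by 0.77 (SE 0.25, adjusted p = 0.0192), a call that was lost without the 2 libraries of lowest depth (0.64, adjusted p = 0.0658) and without mouse 30, 75, 244 or 252 (adjusted p of 0.0512 to 0.0646). Facial and hypoglossal neurons were lowest, at medians of 9.89 and 6.70 RPKM.

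The ocular average hid a steep course with age. Control ocular samples had 43.5, 55.1, 56.3 and 83.8 RPKM of Igfbp5 at day 2, 16.5, 25.0, 25.7 and 31.1 RPKM at day 5, and 3.71, 5.97, 6.23 and 7.98 RPKM at day 10. The 3 days did not overlap, and day 10 minus day 2 was -3.12 (SE 0.30, adjusted p = 1.01e-07). In ocular SMA mice the lowest, median and highest values of the 6 mice were 41.5, 53.4 and 63.8 RPKM at day 2, and the 5 mice of day 10 had 3.36, 4.86, 7.36, 10.4 and 10.7 RPKM. Red nucleus controls fell by 2.80 (SE 0.46, adjusted p = 0.000301), from 10.9, 11.2, 11.3 and 31.3 RPKM to 0, 1.06, 1.6 and 3.51 RPKM. The library at 0 was the one of lowest depth, and without it the difference was -2.42 (adjusted p = 0.00174). Lumbar controls fell less, by 0.78 (SE 0.26, adjusted p = 0.0481), with ranges of 19.2 to 38.9 and 11.6 to 19.9 RPKM that overlapped. This lumbar call was lost in 4 of 8 other settings and in 19 of 34 fits that left out 1 mouse, where adjusted p reached 0.171. With the mouse as block in 1 fit over all populations it was -0.78 with an adjusted p of 0.38. At day 10 ocular neurons therefore lay below lumbar neurons in controls by 1.33 (SE 0.41, adjusted p = 0.0371), whereas at day 2 they lay above by 0.98 (adjusted p = 0.149). The day 10 call was lost with a pseudocount of 0.1 (adjusted p = 0.0868), without ocular libraries of 1 nucleus (adjusted p = 0.0551) and without any 1 of the 4 control mice of that day (adjusted p of 0.0963 to 0.197).

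Igfbp3, the main carrier of IGF in serum, on chromosome 11 (7206086 to 7213923, minus strand), fell with age in ocular (-1.98, SE 0.55, adjusted p = 0.025), hypoglossal (-2.0, SE 0.56, adjusted p = 0.035) and lumbar controls (-1.20, SE 0.36, adjusted p = 0.0248). Ocular controls had 0.501, 3.51, 7.42 and 12.6 RPKM at day 2 and 0, 0.0994, 0.183 and 1.44 RPKM at day 10. Lumbar controls had 5.19, 5.20, 5.65 and 6.19 RPKM at day 2 and 1.45, 1.58, 1.88 and 2.62 RPKM at day 10. Of the control groups, only the lumbar ones were free of overlap. SMA means fell from 5.32 to 1.52 RPKM in ocular and from 5.51 to 1.28 RPKM in lumbar neurons. In hypoglossal neurons the SMA means were 6.68 RPKM at day 2 and 5.67 RPKM at day 10. There SMA minus control at day 10 was 1.59 (adjusted p = 0.483), and its change with age had an adjusted p of 0.71, neither called. Without control mouse 254, present at day 10, the 3 calls were lost (adjusted p of 0.0638 ocular, 0.0902 hypoglossal and 0.0615 lumbar). Leaving out mouse 14, 244, 252 or 253 also ended the ocular call (adjusted p up to 0.109), mouse 26, 240, 244, 247 or 252 the hypoglossal call (up to 0.149) and mouse 20, 244 or 247 the lumbar call (up to 0.0706). In a fit of control samples only, the ocular and hypoglossal calls were lost (adjusted p of 0.113 and 0.0919). The hypoglossal call was also lost with no filter on low values (adjusted p = 0.0634) and with quantile normalization (adjusted p = 0.0523). The lumbar call was also lost in 1 fit over all populations with the mouse as a replicate block (-1.18, adjusted p = 0.32). The F test over populations was not called for Igfbp3 in control samples only (adjusted p = 0.0634) or without ocular libraries of 1 nucleus (adjusted p = 0.148). Across populations Igfbp3 was highest in hypoglossal neurons, at a median of 5.19 RPKM (0.557 to 19.1, n = 12), against 0.583 RPKM in ocular neurons (0 to 12.6, n = 12). Hypoglossal exceeded ocular neurons by 1.12 (SE 0.33, adjusted p = 0.00821). That call was lost without control mouse 26 (0.77, adjusted p = 0.0975) and without ocular libraries of 1 nucleus (0.53, adjusted p = 0.492).

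**Figure D3:**
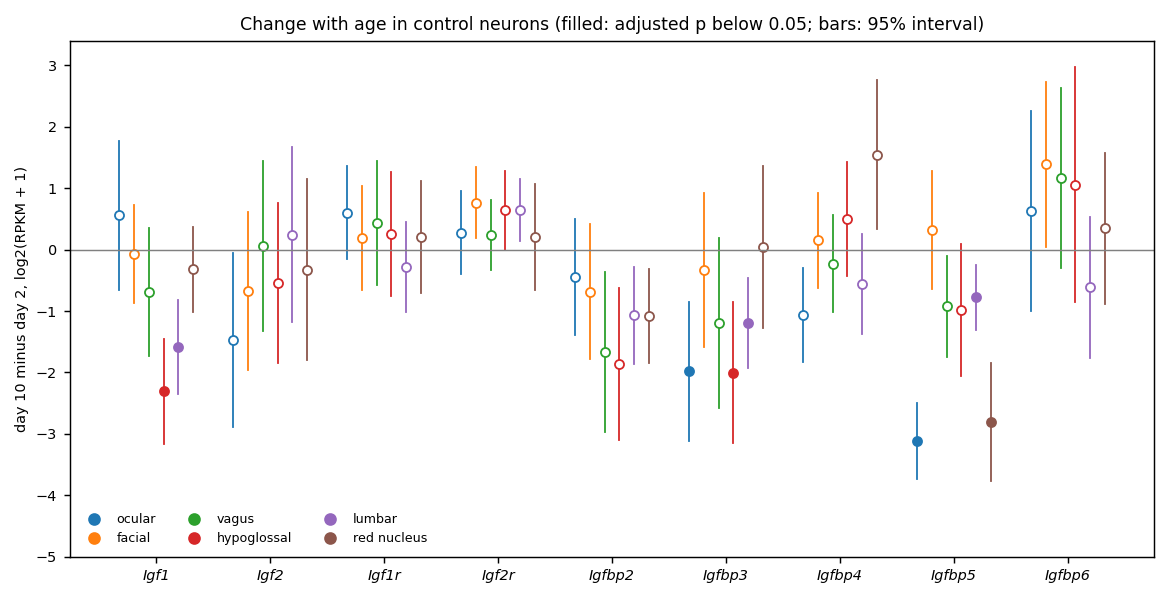
Day 10 minus day 2 in control mice for each member and population on the log2(RPKM + 1) scale, with 95% intervals and filled points where the adjusted p was under 0.05. The filled points are 8, all below 0, for Igf1, Igfbp3 and Igfbp5.

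Over all members, 8 of 54 age differences were called, all of them falls. By population these were 2 in ocular neurons (7.42% of all genes called), 0 in facial (5.36%), 0 in vagus (1.02%), 2 in hypoglossal (4.74%), 3 in lumbar (11.3%) and 1 in red nucleus neurons (11.1%). Igfbp2 was lower at day 10 in all 6 populations, by 0.44 to 1.86, without a call, and Igf2r was higher in all 6, by 0.21 to 0.77, without a call. In the fit over all populations with the mouse as block, 2 other differences were called, Igfbp2 in hypoglossal neurons (-1.86, adjusted p = 0.02) and Igfbp4 in red nucleus neurons (1.55, adjusted p = 0.0056). Oligodendrocyte markers summed to 17.3 to 29.2 RPKM at day 2 and to 351 to 503 RPKM at day 10 in ocular controls, and to 17.5 to 26.6 and 322 to 651 RPKM in red nucleus controls. The same markers summed to 24.15 to 42.53 RPKM at day 2 and to 235.3 to 275.5 RPKM at day 10 in facial controls. In vagus controls they summed to 52.67 to 110.3 RPKM at day 2 and to 41.42 to 86.64 RPKM at day 10. No member was called with age in facial or vagus controls. Other marker sets moved with age too. Leptomeningeal markers summed to 30.8 to 54.8 RPKM at day 2 and to 130 to 297 RPKM at day 10 in hypoglossal controls. Astrocyte markers, Aldoc among them, rose from 618 to 981 RPKM to 1464 to 1849 RPKM in red nucleus controls. In lumbar controls they fell from 1441 to 1769 RPKM to 1039 to 1231 RPKM. The part of oligodendrocyte or other markers in the age differences was not tested.

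Igfbp2, on chromosome 1 (72824503 to 72852474, plus strand), is a binding protein made widely in the developing brain, by glia too. It was high in 3 populations, with control medians of 42.0 RPKM in ocular, 36.5 in red nucleus and 31.3 in lumbar neurons, which were not called apart. Vagus neurons had 0 to 10.4 RPKM with a median of 2.86 (n = 11) and lay 1.91 below hypoglossal neurons, the next population (SE 0.31, adjusted p = 2.57e-07). The 9 called pairs included all 5 with vagus neurons. The 6 astrocyte markers, all in the table, also summed lowest in vagus controls, at 362 to 797 RPKM against means of 1176 to 1649 RPKM elsewhere. Nearly all of that sum was Aldoc, at a mean of 495 RPKM in vagus neurons, and the 5 markers without Aldoc averaged 61.6 RPKM in vagus neurons against 27.1 to 46.0 RPKM elsewhere. The part of astrocyte RNA in Igfbp2 was not tested.

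Igfbp6, a binding protein that prefers IGF2, on chromosome 15 (102144362 to 102149511, plus strand), had its highest median in ocular neurons. Ocular controls had 2.18 to 19.6 RPKM with a median of 9.72 and no sample at 0 (n = 12). Facial and hypoglossal neurons had medians of 4.94 and 4.58 RPKM. Lumbar neurons had a median of 0.405 RPKM (0 to 5.95, n = 13), and vagus and red nucleus neurons had a median of 0, with 6 of 11 and 7 of 11 samples at 0. The transcript is short, so that 3 reads equal 0.458 RPKM at the median depth, and a 0 therefore allows that level. Ocular exceeded lumbar neurons by 2.44 (SE 0.43, adjusted p = 1.77e-06), vagus by 2.62 (SE 0.45, adjusted p = 9.55e-07) and red nucleus neurons by 2.86 (SE 0.45, adjusted p = 8.14e-08). Ocular and facial neurons were not called apart (0.69, SE 0.43, adjusted p = 0.321). Ocular exceeded hypoglossal neurons by 1.27 (SE 0.44, adjusted p = 0.0272), a call lost with a pseudocount of 0.1 (adjusted p = 0.0785), without ocular libraries of 1 nucleus (1.13, adjusted p = 0.173) and without mouse 14, 30, 34, 71, 240, 244 or 253 (adjusted p of 0.0537 to 0.124). At day 10 the 4 ocular controls had 7.69, 10.2, 11.4 and 15.4 RPKM and the 4 lumbar controls had 0, 0.166, 0.178 and 1.89 RPKM, and the difference was 3.07 (SE 0.75, adjusted p = 0.0039). At day 5 it was 2.44 (SE 0.71, adjusted p = 0.0215), a call lost without ocular libraries of 1 nucleus (1.94, adjusted p = 0.836), with a pseudocount of 0.1 (adjusted p = 0.0642) and without mouse 29, 30, 71 or 75 (adjusted p of 0.0622 to 0.0962).

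Igfbp4, on chromosome 11 (99041244 to 99054392, plus strand), whose product is cut by the protease pappalysin PAPPA, was highest in facial (7.47 ± 2.80 RPKM, SD, n = 13) and lumbar neurons (6.84 ± 2.43 RPKM, SD, n = 13). It was lowest in red nucleus neurons, at 1.98 ± 2.15 RPKM (SD, n = 11). The 6 called pairs all held either vagus or red nucleus neurons on the lower side. Pappa itself averaged 15.8 ± 3.86 RPKM (SD, n = 13) in lumbar controls and 0.296 to 4.51 RPKM in the other populations, with an adjusted p of 1.49e-41 over populations.

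Similar profiles were sought over the means of the 18 control groups, among genes with a control group mean of at least 10 RPKM. Igf1 was most like Cadm2 (r = 0.93), Mgst3 (r = 0.90) and Npas1 (r = 0.90), Igfbp2 like Fam184b (r = 0.91), mt-Cytb (r = 0.88) and Mgst3 (r = 0.88), and Igfbp6 like Matn2 (r = 0.88), Serpinb1a (r = 0.87) and Lypd1 (r = 0.83). Igf2r was most like Klc1 (r = 0.87), Map2k7 (r = 0.84) and Vcp (r = 0.80), and Igfbp5 like Rasal2 (r = 0.81), Perp (r = 0.80) and Twsg1 (r = 0.79). Igfbp4 was like Zfp583 (r = 0.86) and Ret (r = 0.80), and Igfbp3 like Lphn3 (r = 0.83), Cpxm1 (r = 0.79) and Kif3b (r = 0.77). The 2 flat members had weaker matches, Igf2 with Miat (r = 0.79), Slc12a9 (r = 0.77) and Ppfia4 (r = 0.76), and Igf1r with Rps6kc1 (r = 0.72), Babam1 (r = 0.70) and Ccnk (r = 0.70). Among the members themselves the closest pair was Igf1 and Igfbp2 (r = 0.82), both lowest in vagus neurons. The 18 means share mice and libraries across genes, so these values are descriptions.

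The comparison of SMA with control mice asked whether the axis differed in disease in each population and at each day. None of the 162 member differences was called by limma, and 11 had an unadjusted p under 0.05. Over all genes the shares were 0.125% called and 7.07% under the unadjusted threshold. Igfbp6 in lumbar neurons at day 10 came closest. The 4 controls had 0, 0.166, 0.178 and 1.89 RPKM and the 5 SMA mice had 2.44, 3.49, 4.23, 4.98 and 6.61 RPKM, and the groups did not overlap. The difference was 1.87 (SE 0.53, 95% interval 0.78 to 2.96, adjusted p = 0.108). At days 2 and 5 the lumbar groups overlapped, and the test of a change of this difference with age gave an adjusted p of 0.459.

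**Figure D4:**
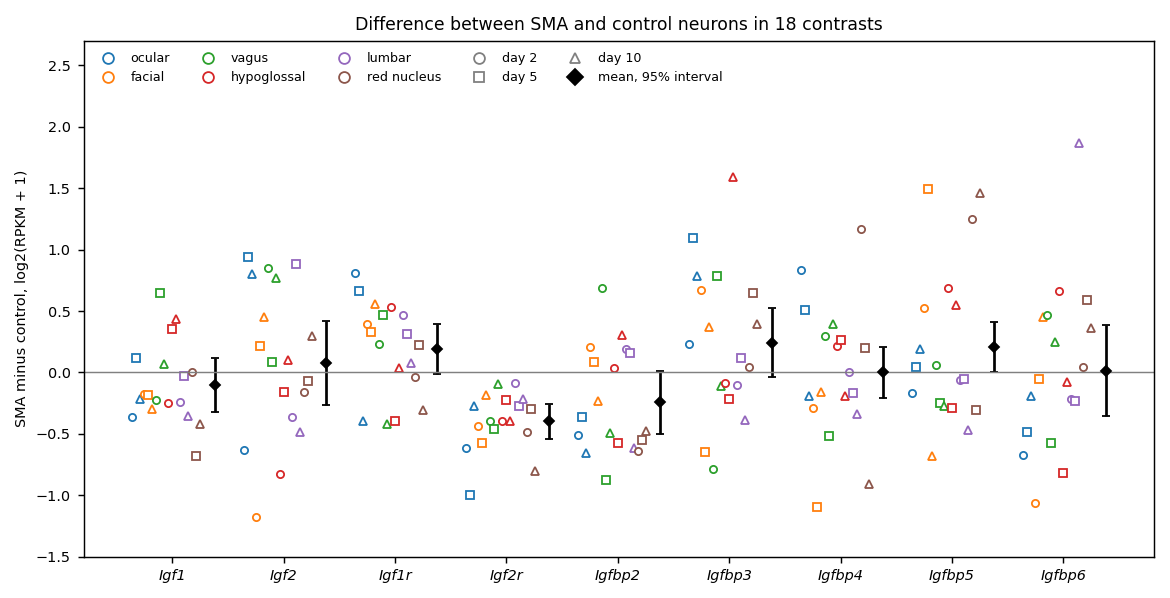
SMA minus control on the log2(RPKM + 1) scale for each member in 18 contrasts, with colours for populations and symbols for days, and a black diamond for the mean over populations and days with its 95% interval. For Igf2r the 18 points and the interval lie below 0, whereas the points of the other members lie on both sides.

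The other 8 members had differences on both sides of 0. Igf1 differences ran from -0.68 to 0.64 and were lower in SMA in 12 of 18 contrasts, and none had an unadjusted p under 0.05. Igf1r was higher in SMA in 13 of 18 contrasts. In ocular neurons at day 2, Igf1r was 0, 0.203, 0.698 and 1.89 RPKM in controls and ran from 0.796 to 4.15 RPKM in 6 SMA mice, a difference of 0.81 with overlap (adjusted p = 0.374). Averaged over the 6 populations, Igf1r differed by 0.38 at day 2 (adjusted p = 0.282), 0.26 at day 5 and -0.08 at day 10. No member was called in these averages at any day, and 1.54%, 0.117% and 1.78% of all genes were at days 2, 5 and 10.

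Igf2r was the exception in direction, lower in SMA in 18 of 18 contrasts, by 0.09 to 1.0. The populations of a day share mice, so these are not 18 independent results. The share of all genes with 1 direction in all 18 contrasts was not counted. In ocular neurons at day 5 the controls had 10.7, 11.4, 16.3 and 23.0 RPKM and the SMA mice had 3.15, 6.46, 7.59, 8.95 and 10.4 RPKM, which did not overlap. In facial neurons at day 5 the controls had 8.79, 10.1, 12.2 and 13.6 RPKM and the SMA mice had 5.86, 7.79 and 7.79 RPKM, again without overlap. In the other contrasts the genotypes overlapped, as in lumbar neurons at day 2, where controls had 10.9 to 15 RPKM and SMA mice 7.75 to 14.7 RPKM. Over the days together, medians were 14.3 against 9.78 RPKM in ocular, 13.1 against 8.75 in facial, 14.8 against 12.2 in vagus, 9.91 against 7.10 in hypoglossal, 16.3 against 14.1 in lumbar and 12.7 against 8.70 in red nucleus neurons, control first. The order of the populations by median was the same in both genotypes.

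**Figure D5:**
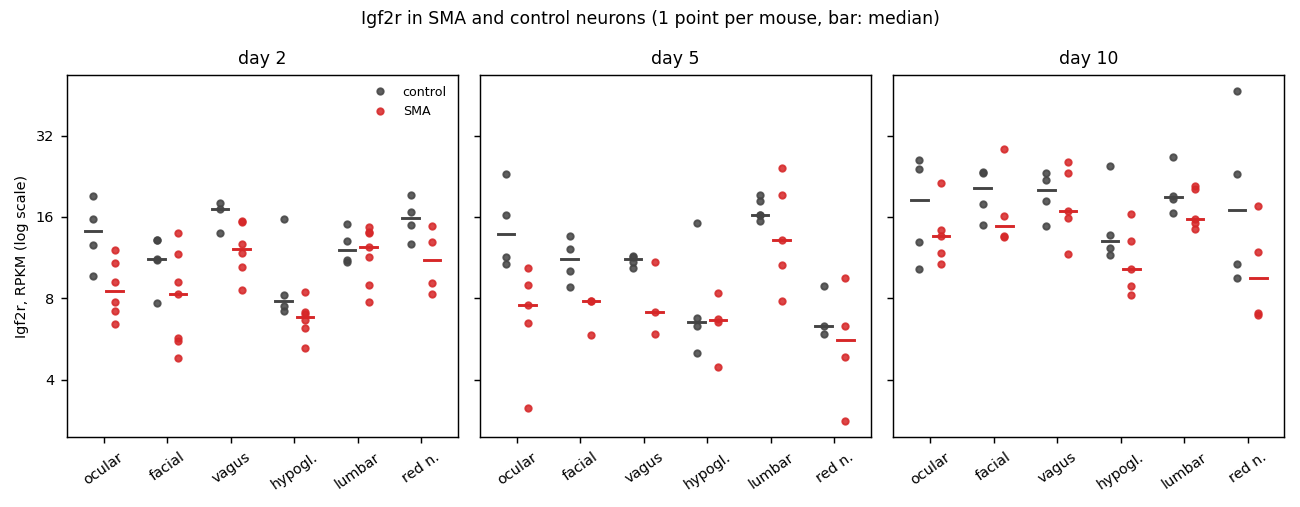
Igf2r in RPKM on a log axis for each day and population, with 1 point per mouse, controls in grey, SMA mice in red and a bar at the median. At day 5 the SMA mice lie below all controls in ocular and facial neurons, and the other pairs of groups overlap.

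Averaged over populations, Igf2r was lower in SMA by 0.39 at day 2 (SE 0.12, adjusted p = 0.0626), by 0.47 at day 5 (SE 0.13, adjusted p = 0.124) and by 0.33 at day 10 (SE 0.13, adjusted p = 0.227), none of them called. The mean over populations and days, a contrast chosen after these values were seen, was -0.40 (SE 0.07, 95% interval -0.54 to -0.25, adjusted p = 7.05e-05). In that contrast Igf2r was the 1 member called of 9, 3.52% of all genes were called and 0.718% were called lower in SMA, while the median over all genes was 0.04. Averaged over its populations, 18 of 19 SMA mice lay below the control means, 9 of 9 at day 2, 5 of 5 at day 5 and 4 of 5 at day 10. This count uses the same values for which Igf2r was singled out, so it is no separate support. Its share over all genes was not counted. Airn differed by -0.02 in the same contrast (adjusted p = 0.965). Depth was a median of 5.62 M reads in SMA and 6.62 in control libraries, and within groups Igf2r deviations had a correlation of -0.01 with log2 depth over 160 samples. Of the motor neuron, astrocyte and oligodendrocyte markers, 2 of 4, 2 of 6 and 2 of 6 were higher in SMA in that contrast, with medians between -0.06 and -0.02, and 1 astrocyte marker was called. Most other sets leaned higher, with medians of 0.02 to 0.22 and no call. These were red nucleus (2 of 2 higher), choroid plexus (3 of 3), endothelium (5 of 6), mural cells (3 of 4), microglia (4 of 6) and leptomeninges (3 of 5). Oligodendrocyte precursor markers had 0 of 2 higher (median -0.08). The part of any of these marker sets in the Igf2r difference was not tested. Within groups, deviations of Igf1r and Igf2r were opposed (r = -0.40, 160 samples that share mice and tubes). That value was picked as the largest in size of all pairs of members. The other pairs lay between -0.25 and 0.23, and a link between the 2 receptors was not tested.

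No change of the genotype difference with age, or between ocular and lumbar neurons, was detected. The test of a difference that changes with age called 0 of 54 member results, with 5 at an unadjusted p under 0.05, against 0.0335% of all genes called. The test of ocular against lumbar neurons called 0 of 27, with 1 at an unadjusted p under 0.05, against 0.0254% of all genes called. These counts do not show that the differences were equal.

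A wider list of the pathway held 49 further genes, from insulin receptor substrates to mTOR, other binding proteins and the proteases that cut them. In the 18 genotype contrasts 0 of 705 results of this list were called, and 48 (6.81%) had an unadjusted p under 0.05, against 0.125% and 7.07% over all genes. In the average over populations the list had 1 call of 47 tested at day 2, Gsk3b, a kinase held inactive by AKT, which was lower in SMA by 0.47 (SE 0.09, adjusted p = 0.000629), and 0 at days 5 and 10, against 1.54%, 0.117% and 1.78% of all genes. Over populations and days it had 2 calls of 47, both higher in SMA, where 3.52% of all genes were called, 623 of them higher and 160 lower. These were Eif4ebp1, a translation repressor downstream of mTOR (0.72, SE 0.18, adjusted p = 0.0084), and Pik3r1, the regulatory subunit of PI3K (0.24, SE 0.08, adjusted p = 0.0476). Across populations 31 of 47 were called, against 43.7% of all genes. Grb10, an adaptor that dampens IGF receptor signals, had a mean of 52.6 RPKM in vagus controls against 7.43 to 19.7 RPKM elsewhere. With age, Htra1, a protease that cuts binding proteins, rose in facial (2.26), lumbar (2.19), ocular (2.33) and red nucleus (2.12) controls. Irs4, an insulin receptor substrate, fell in lumbar controls (-2.42, adjusted p = 9.67e-07), and Stc1, an inhibitor of pappalysin, fell in lumbar (-2.69) and hypoglossal (-1.58) controls. With age the list had 1 call of 42 in facial neurons (5.36% of all genes), 2 of 40 in hypoglossal (4.74%), 5 of 40 in lumbar (11.3%), 3 of 40 in ocular (7.42%), 6 of 35 in red nucleus (11.1%) and 1 of 38 in vagus neurons (1.02%).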

How the data were processed

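The authors deposited 1 table of RPKM for 168 libraries. Per the submitters' processing notes it involved STAR 2.4.1c and the builds mm10 and hg19. The read counter, annotation and use of strand are not given in the sources used here. Every column was matched to its library by title, and the RPKM of libraries from 1 mouse and population were averaged. Positions came from GENCODE M21 (GRCm38) and upstream bases from RefSeq. Depth was estimated from the steps of low RPKM values, which lay within 0.1% of whole reads for a median of 70.8% of values per library, so it is approximate. Floors cover counting error only.

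Tests used limma 3.58.1 in R 4.3.3 on log2(RPKM + 1), with genes of at least 1 RPKM in 3 samples, Benjamini-Hochberg adjustment over all genes within a contrast (over genes and the 15 pairs together for pairs) and two-sided tests. Genotype and age contrasts used a fit per population. Averages and comparisons of populations used 1 fit over all groups with the mouse as block, since mouse numbers in the labels mark the same animal (consensus correlation 0.0366, reused in the alternatives). The script was tested on simulated data. Named genes were the 9 members, up to 4 called genes of the pathway list per comparison and the 3 most similar genes per member, of which 1 is not reported here. Members and lists were chosen with earlier results of these data known. Alternatives were the pseudocount, the filter, quantile normalization, single libraries, low depth, block, samples in the fit and each mouse left out.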

Additional observations from a re-analysis of the deposited data

Results flagged for a closer look

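In 24 of 254 groups of 4 to 7 mice with a mean of at least 1 RPKM, 1 mouse lay far from the others on the log2(RPKM + 1) scale, judged by its gap to the nearest mouse over the whole range of the group. That is 9.45% of the groups, where chance alone would mark about 1 in 20 groups, and both ends of each range were looked at. No cause was tested for any of them.

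For the ligands, Igf1 was low at 4.155 RPKM in facial control mouse 26 of day 2 (others 7.619 to 8.762), and high at 15.07 RPKM in lumbar control mouse 71 of day 5 (others 5.743 to 6.442) and at 29.96 RPKM in ocular SMA mouse 250 of day 10 (others 10.32 to 13.7). Igf2 was high at 11.06 RPKM in hypoglossal SMA mouse 206 of day 2 (others up to 0.2377). It was also high in red nucleus controls, at 15.97 RPKM in mouse 14 of day 2 (others up to 0.1402) and at 4.925 RPKM in mouse 247 of day 10 (others up to 0.3023).

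For the receptors, Igf1r was high at 3.451 RPKM in red nucleus SMA mouse 31 of day 5 (others up to 0.4231). Igf2r was high at 15.71 RPKM in hypoglossal control mouse 240 of day 2 (others up to 8.202). In the same hypoglossal sample Igfbp5 was low, at 1.27 RPKM against 10.28 to 13.12 in the others.

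For the binding proteins, Igfbp2 was low in lumbar SMA mouse 209 (23.24 RPKM) and ocular SMA mouse 206 (8.289 RPKM) of day 2 and red nucleus control mouse 247 of day 10 (11.54 RPKM), and high in vagus SMA mouse 207 of day 2 (15.65 RPKM). Igfbp3 was high in hypoglossal control mouse 253 of day 10 (2.571 RPKM), lumbar control mouse 29 (7.384 RPKM) and ocular control mouse 71 (5.873 RPKM) of day 5, and red nucleus SMA mouse 249 of day 10 (10.14 RPKM). Igfbp4 was low in lumbar control mouse 34 of day 5 (4.301 RPKM) and high in ocular control mouse 14 of day 2 (9.688 RPKM). Igfbp5 was high in hypoglossal control mouse 252 of day 10 (8.616 RPKM), red nucleus control mouse 28 of day 2 (31.34 RPKM) and vagus control mouse 34 of day 5 (26.25 RPKM). Igfbp6 was low in ocular SMA mouse 46 of day 5, at 0.2125 RPKM against 10.21 to 12.42 in the others, and high in vagus control mouse 71 of day 5, at 5.846 RPKM with the others at 0.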

How the results depend on the processing

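Of 72 calls, 18 were lost in at least 1 alternative, and 0 of 3082 alternative values were marked as reversed. The calls include the 7 F tests over populations, which have no direction, so their alternatives could not reverse. The SMA difference averaged over populations had 0 calls, but 1 with a stricter filter (at least 5 RPKM) and 1 with no replicate block, both Igf2r at day 2 (adjusted p = 0.0459 and 0.0293 with limma). Leaving out each of 34 mice gave 0 to 1 calls there, 6 to 7 across populations (7 in the full data), 45 to 55 for pairs (51) and 5 to 8 with age (8). It gave 0 for genotype by population, for its change with age and for ocular against lumbar neurons in SMA. In 1 fit over all populations with the mouse as replicate block, there were 0 genotype calls and 8 age calls. Of the 8 original age calls 2 were lost there (Igfbp3 and Igfbp5 in lumbar neurons, adjusted p of 0.32 and 0.38). In that fit 2 were gained (Igfbp2 in hypoglossal and Igfbp4 in red nucleus neurons). Mice differ between ages, so the block pairs no samples in an age difference. The fit also estimates the spread over all populations together. The contrasts chosen after seeing the data kept Igf2r over populations and days in all 8 other settings (-0.44 to -0.38) and in 34 fits without 1 mouse (-0.45 to -0.33, adjusted p at most 0.00133). Of the 5 calls for ocular against lumbar controls by day, 1 remained with a pseudocount of 0.1 and 2 without ocular libraries of 1 nucleus, and 3 to 5 without 1 mouse. At the median depth 3 reads equal 0.0303 (Igf1r) to 0.458 RPKM (Igfbp6), which limits what a 0 shows. The cause of these changes was not tested.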
